A study of Homo sapiens with 3 samples.

Results

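The genes described here carry cells from G1 into S phase and copy the DNA there: E2F factors, G1 cyclins and their kinases, the loading and activation of the replicative helicase, the replication fork, nucleotide supply and chromatin assembly. They were taken as the probe sets annotated to exactly 1 symbol out of a list of 49, which gave 101 of the 54675 probe sets on the array and 49 of 19775 named genes. RNA came from MDA-MB-231, a human breast cancer cell line of basal type. The cultures spent 4 h in medium with 10% charcoal-stripped serum, which is poor in steroids, and then 3 h with 0.1% ethanol as vehicle, with estradiol at 1 µM or with tamoxifen at 1 µM. Estradiol is the natural ligand of the estrogen receptors, and tamoxifen is a drug that binds them and blocks or alters their action. Each group held 1 array by the labels, so no spread, interval or p-value exists for any value; whether the vehicle column is a mean of several arrays is not stated in the sources used here. The series title names the early effect of tamoxifen as its question.

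In G1, D-type cyclins with CDK4 or CDK6, and then cyclin E with CDK2, phosphorylate the retinoblastoma protein, which releases E2F factors to switch on replication genes. Meanwhile ORC, CDC6 and CDT1 load the MCM2 to MCM7 ring onto origins, and CDC45 and the GINS complex turn that ring into an active helicase. Estrogen drives this switch in breast cells that carry the estrogen receptor alpha. MDA-MB-231 cells are generally regarded as lacking that receptor.

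Promoters of replication genes are known for E2F sites and CCAAT boxes, so the 250 bases before the start site were searched in the RefSeq promoter sequences (build GRCh38.p14), which held 42 of the 49 genes. The words searched for E2F were GCGGGAA as well as GGCGGGA and the longer TTTGGCGC and TTTCCCGC, and the other motif was CCAAT, each on either strand. The first E2F word can overlap the second, and the reverse of the last always contains the first. At least 1 of the E2F words was found in 27 of the 42 promoters (64.3%), against 26.0% of 9848 promoters of genes above the brightness floor described below and 16.3% of all 27305 promoters. CCAAT was found in 23 of the 42 (54.8%), against 35.1% and 33.0%, and promoters with both kinds made up 42.9%, against 9.74% and 5.45%. Of 51 promoters of further pathway genes (described below), 47.1% held an E2F word, 45.1% CCAAT and 27.5% both. Median GC content was 66.8% for members, 66% for these further genes, 64.8% for genes above the floor and 58% for all promoters. A match is a run of letters and not a measured binding site. Printed below, 5′ to 3′ on the strand of the gene and with the matches in capitals, are the promoters of MCM2 and MCM7, which lay below vehicle as deposited with both ligands, of ORC1, which was lower on the tamoxifen than on the estradiol array, and of POLA1, which lay above vehicle with both. MCM2 is at chr3:127598161-127598410 (plus strand), MCM7 at chr7:100101398-100101647 (minus strand), ORC1 at chr1:52404424-52404673 (minus strand) and POLA1 at chrX:24693668-24693917 (plus strand).
MCM2: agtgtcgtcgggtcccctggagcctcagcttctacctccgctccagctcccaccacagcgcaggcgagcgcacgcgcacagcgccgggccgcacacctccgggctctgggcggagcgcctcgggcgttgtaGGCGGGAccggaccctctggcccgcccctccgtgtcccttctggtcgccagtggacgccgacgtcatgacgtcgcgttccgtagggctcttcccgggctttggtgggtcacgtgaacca
MCM7: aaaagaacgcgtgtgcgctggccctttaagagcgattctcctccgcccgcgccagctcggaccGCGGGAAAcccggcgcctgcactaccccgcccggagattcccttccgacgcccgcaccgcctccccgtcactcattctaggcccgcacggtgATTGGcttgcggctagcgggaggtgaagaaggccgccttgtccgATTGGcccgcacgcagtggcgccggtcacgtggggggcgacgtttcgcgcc
ORC1: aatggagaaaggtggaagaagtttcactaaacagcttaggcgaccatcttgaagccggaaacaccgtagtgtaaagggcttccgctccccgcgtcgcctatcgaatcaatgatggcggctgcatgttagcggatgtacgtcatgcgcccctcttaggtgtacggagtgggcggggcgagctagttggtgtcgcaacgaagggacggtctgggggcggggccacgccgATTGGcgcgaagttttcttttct
POLA1: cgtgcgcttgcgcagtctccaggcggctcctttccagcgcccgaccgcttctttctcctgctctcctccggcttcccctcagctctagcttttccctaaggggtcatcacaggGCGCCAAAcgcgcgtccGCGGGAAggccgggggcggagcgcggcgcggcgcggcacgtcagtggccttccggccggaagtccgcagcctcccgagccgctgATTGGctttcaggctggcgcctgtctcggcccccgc
MCM2 held 1 E2F match and no CCAAT, while MCM7 held 1 E2F stretch, which matches 2 of the words, and 2 CCAAT matches. ORC1 held 1 CCAAT and none of the E2F words, and POLA1 held 2 E2F matches and 1 CCAAT. The 27 members with E2F letters had a median estradiol minus vehicle difference of -0.22 and the 15 without them -0.16, and with the vehicle doubled both medians were 0.09. For tamoxifen minus vehicle the medians were -0.0013 and -0.12, and 0.15 and 0.23 when doubled, so the order of the groups turned. For tamoxifen minus estradiol they were 0.11 and 0.04.

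The deposited values are log2 values centred for each probe set on a baseline that the sources used here do not state, with column medians of -0.04, -0.02 and -0.02 for vehicle, estradiol and tamoxifen. Base 2, and a higher value meaning more RNA, were assumed. Levels of different genes therefore cannot be compared, and results are differences between arrays. The vehicle column spread less over genes above the floor (SD 0.20, against 0.49 for each ligand), so medians over lists and groups, and the members that the results turn on, have a second version in which the vehicle value is doubled; which version is nearer the truth was not tested. Values given once are as deposited. Doubling turned the sign of 17 of the 49 members (34.7%, against 14.6% of all genes above the floor) with estradiol and of 13 (26.5%, against 11.9%) with tamoxifen. Doubling raises every difference whose vehicle value is below 0, as in 46 of the 49 members. The direction of these turns was therefore largely set by the vehicle values. Probe sets were kept when the numeric step of their values placed their log2 level at 4 or more, which left 80 of the 101 member probe sets, with at least 1 for each of the 49 genes, and 12067 genes in all. Each gene was given the average of those of its probe sets that lay in the highest band it reached (4 to 8, or 8 to 16). VIM, CD44, EGFR, CAV1, AXL and MSN, 6 of 7 markers of this cell line, lay in the brightest band and SPARC lay below the floor. Of 7 luminal breast markers, PGR, FOXA1, CDH1 and ERBB3 lay below it and ESR1, GATA3 and KRT19 above it, ESR1 being the gene of the estrogen receptor alpha. Both epithelial markers (KRT8 and KRT18) were above it, as were 1 of 4 leukocyte markers (PTPRC) and 2 of 5 endothelial and fibroblast markers (PECAM1 and VWF). The brightest band held 2 of the luminal markers and both epithelial ones, but 0 of the leukocyte and 0 of the endothelial and fibroblast markers. The bacterial poly-A control RNAs, which are spiked into a sample ahead of labelling, stood above the vehicle values by 0.99 with estradiol and 0.84 with tamoxifen (0.44 and 0.36 with the vehicle doubled). The gap between the 3′ and 5′ control probe sets for actin was wider by 0.94 on the tamoxifen than on the estradiol array, and that for GAPDH by 0.11. The part of these in the results was not tested. GAPDH differed from vehicle by -0.07 with estradiol and -0.15 with tamoxifen, and ACTB by -0.05 and -0.14.

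On all 3 arrays most replication genes lay below the baseline. In the vehicle column 46 of the 49 members were below 0 (93.9%), against 64.8% of the 12067 genes above the floor. With estradiol 38 were below 0 and with tamoxifen 35 (77.6% and 71.4%, against 53.4% and 54.0%). The median member stood at -0.19, -0.36 and -0.18 on the vehicle, estradiol and tamoxifen arrays. The 3 values had 1 sign in 67.3% of members, against 52.1% of all genes, and the vehicle value was the nearest to 0 in 55.1%, against 63.3%. These are positions relative to the unstated baseline and not differences between treatments.

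**Figure D1:**
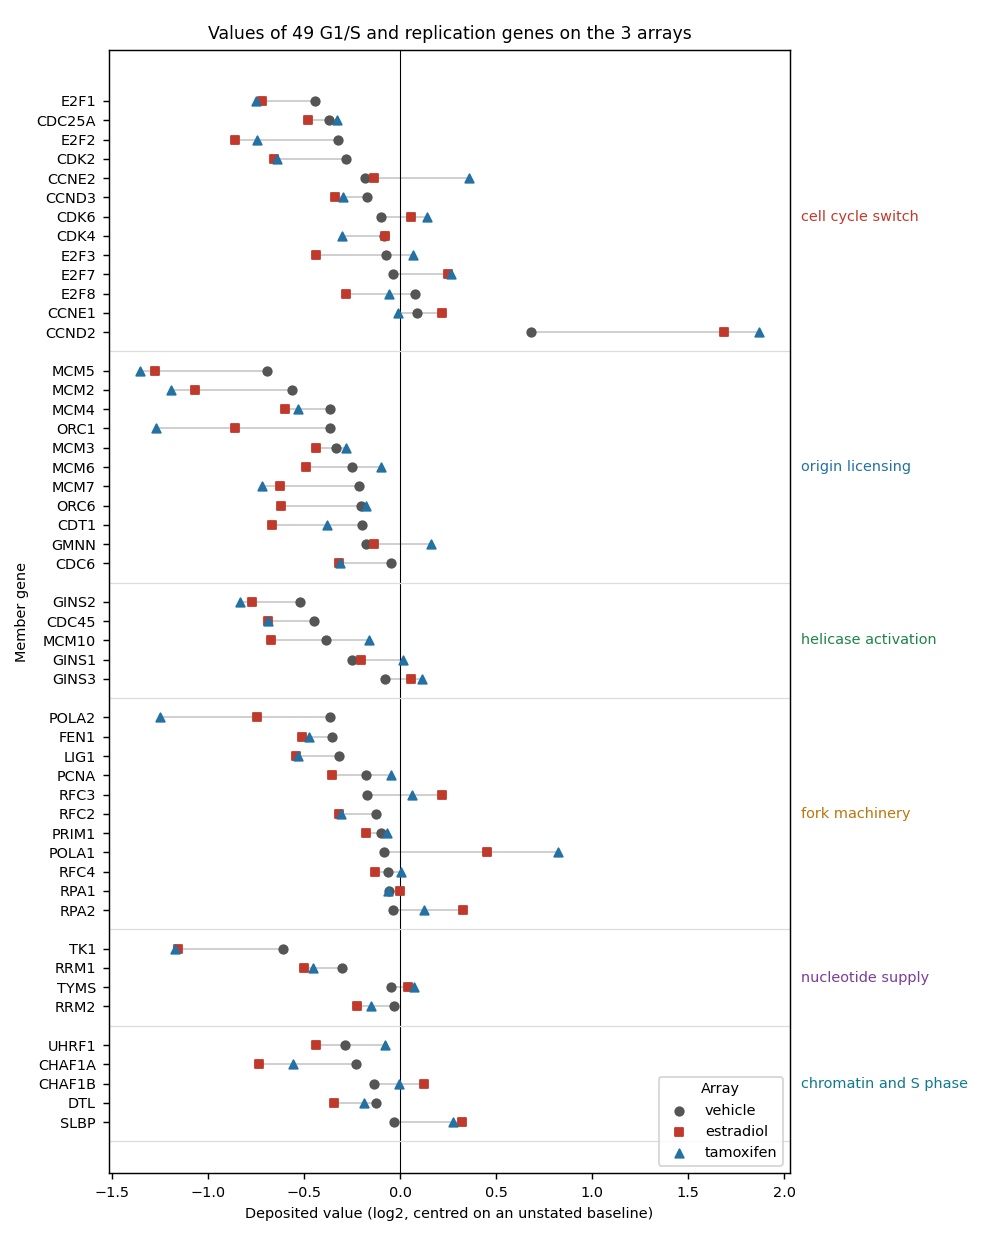
Deposited value of each of the 49 member genes (x axis, log2, centred on an unstated baseline) on the vehicle (circle), estradiol (square) and tamoxifen (triangle) arrays, 1 array each, grouped by role. CCND2 stands alone at the right at 0.68, 1.69 and 1.87, and the MCM5, MCM2 and TK1 values with either ligand lie left of their vehicle values.

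Against vehicle, few members of the replication program passed 1.5-fold with estradiol. CCND2, the gene of cyclin D2, was 2.01-fold higher, and MCM5, a subunit of the helicase ring, was lower, its difference of -0.59 being just past the rule. That is 1 of 49 higher and 1 of 49 lower, against 5.83% and 2.65% of all genes above the floor. The median over the 49 genes was -0.19, with 33 below 0 (67.3%), against a median of 0.02 over all genes with 46.7% below 0. With the vehicle doubled the median turned to 0.10, with 33 above 0, and the calls became 1 higher, POLA1, and 0 lower (4.39% and 1.92% of all genes). The upward move was set by the vehicle values, 46 of the 49 members being below 0 there (64.8% of all genes). Whether the list leans below vehicle therefore depends on how the vehicle column is read.

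With tamoxifen 2 members were at least 1.5-fold above vehicle and 4 below. CCND2 was 2.28-fold higher, and POLA1, the catalytic subunit of the polymerase that starts new strands, was 1.87-fold higher. ORC1, the largest subunit of the origin recognition complex, was 1.88-fold lower, POLA2, the partner subunit of POLA1, 1.84-fold lower, MCM5 1.59-fold lower and MCM2 1.55-fold lower. Of all genes 6.97% were higher and 4.33% lower by this rule. The list median was -0.06, against 0.02 over all genes, and it turned to 0.17 with the vehicle doubled, when 3 members were higher (CCNE2, MCM10 and POLA1) and 0 lower, against 7.14% and 3.64% of all genes. The median was also above 0 among the 28 members of the brightest band (0.097). The same held for the 34 members left without probe sets whose names end in _s_at, _x_at or _a_at (0.036). Averaged over every probe set with no floor, CCND2 stood at 0.52 and POLA2 at -0.35, short of the rule. In RNA from whole cultures, fewer cells in a cycle phase and less RNA per cell cannot be told apart.

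**Figure D2:**
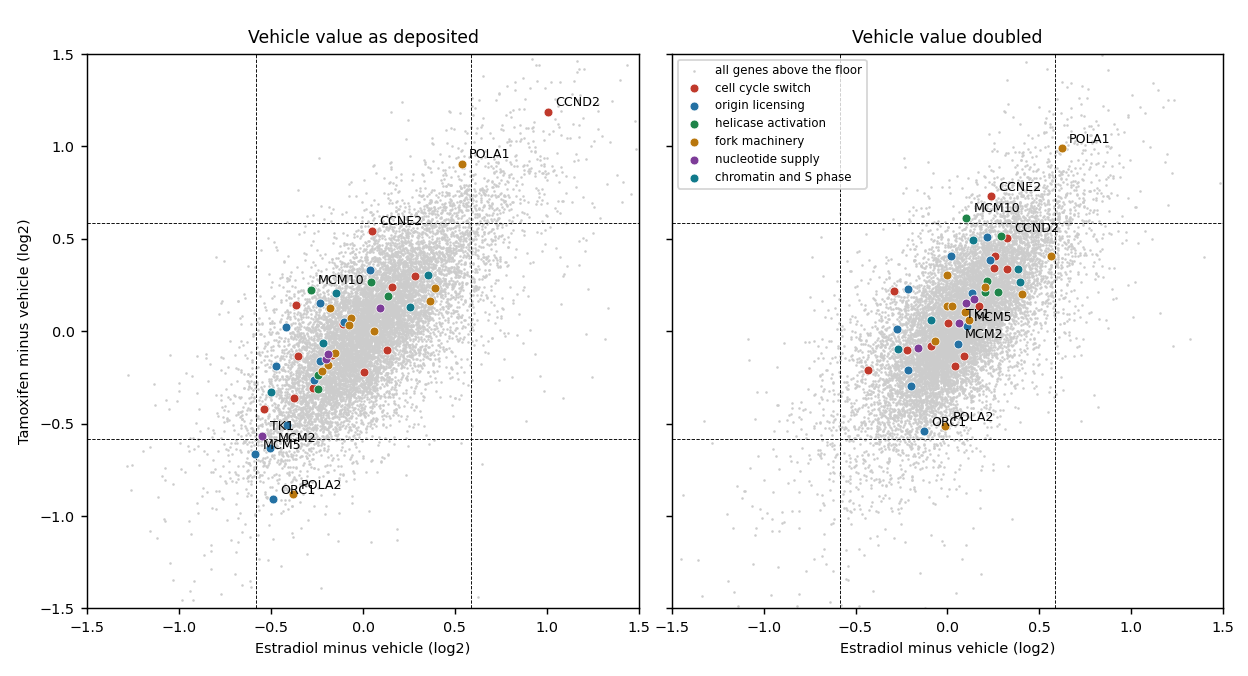
Estradiol minus vehicle (x axis) against tamoxifen minus vehicle (y axis), both log2, with the vehicle value as deposited (left) and doubled (right), for all 12067 genes above the floor (grey, those beyond 1.5 on an axis not drawn) and the 49 members (coloured by role); dashed lines mark 1.5-fold. Both axes share the vehicle values. As deposited MCM5, MCM2 and TK1 lie at the lower left, and with the vehicle doubled they lie near the centre, while POLA1 stays at the upper right.

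Among the regulators of the switch, the values of CCND2 and E2F3 depended on the probe set. The 1 probe set of CCND2 above the floor read 0.68 with vehicle, 1.69 with estradiol and 1.87 with tamoxifen. Both ligand arrays were thus higher than vehicle, by 0.32 and 0.51 with the vehicle doubled. The other 3 CCND2 probe sets lay below the floor and differed from vehicle by between -0.03 and 0.17 with estradiol and between -0.10 and 0.58 with tamoxifen. The average over all 4 differed from vehicle by 0.30 with estradiol, which is short of 1.5-fold. E2F3, an activator of S-phase genes, read -0.22, -1.15 and -1.10 at its dimmer probe set in the same order, and the differences of -0.93 and -0.89 put both ligand arrays below vehicle. Its brighter probe set read -0.07, -0.44 and 0.07, so that only the estradiol array was lower there. E2F2 read -0.32, -0.86 and -0.75 and E2F1, the mean of 2 probe sets, -0.44, -0.72 and -0.75. Both activators lay below vehicle, with differences of -0.54 and -0.42 for E2F2 and of -0.27 and -0.31 for E2F1. With the vehicle doubled E2F2 stayed below it (-0.22 and -0.10) and E2F1 lay above it (0.17 and 0.14).

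The repressive E2F members differed from each other. E2F7 read -0.04, 0.25 and 0.26, above vehicle with both ligands, and E2F8 0.07, -0.28 and -0.06, below it with both. Of the cyclin E genes, CCNE2 read -0.19, -0.13 and 0.36 at its bright probe set, with the tamoxifen array apart from the other two. CCNE1 differed from vehicle by 0.13 with estradiol and -0.10 with tamoxifen. With tamoxifen its 2 probe sets disagreed in sign, at -0.22 and 0.02. CDK2, the partner kinase of cyclin E, read -0.28, -0.66 and -0.64. Its differences from vehicle were -0.37 and -0.36, and -0.09 and -0.08 once the vehicle was doubled. As gene values, the other regulators (CCND3, CDK4, CDK6 and CDC25A) differed from vehicle by -0.22 to 0.24. Probe sets above the floor disagreed in sign for CDC25A (-0.45 to 0.10 with estradiol, -0.19 to 0.27 with tamoxifen). The same held for CDK6 (-0.30 to 0.16 and -0.38 to 0.24). The 13 regulators had medians of -0.11 with estradiol and -0.10 with tamoxifen, which turned to 0.09 and 0.14 with the vehicle doubled.

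Origin licensing genes had the lowest group median with estradiol, -0.41 over 11 genes, 10 of them below vehicle (46.7% of all genes). With tamoxifen the median was -0.19, with 7 of 11 below vehicle (47.9% of all genes) and 3 at least 1.5-fold lower (ORC1, MCM2 and MCM5; 4.33% of all genes). With the vehicle doubled the medians were 0.02 and 0.03 and no licensing gene passed the rule. The MCM ring is built from 6 subunits in equal number, and their values did not run alike. MCM5 read -0.68, -1.28 and -1.26 at the first probe set and -0.70, -1.27 and -1.46 at the second, so both ligand arrays were below vehicle at both probe sets. MCM2 read -0.56, -1.07 and -1.19. MCM7 read -0.21, -0.63 and -0.72 at its brighter probe set and -0.23, -0.94 and -1.05 at the other. These 3 subunits lay below vehicle with both ligands, and the doubled vehicle left MCM7 below it (-0.20 and -0.29), MCM5 above it (0.10 and 0.03) and MCM2 on either side (0.06 and -0.07).

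MCM3 and MCM6 were at or above vehicle with tamoxifen. MCM3 read -0.33, -0.44 and -0.28, and MCM6 -0.25, -0.49 and -0.10. The 3 probe sets of MCM4 above the floor differed from vehicle by -0.29 to -0.16 with estradiol and by -0.33 to 0.10 with tamoxifen.

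**Figure D3:**
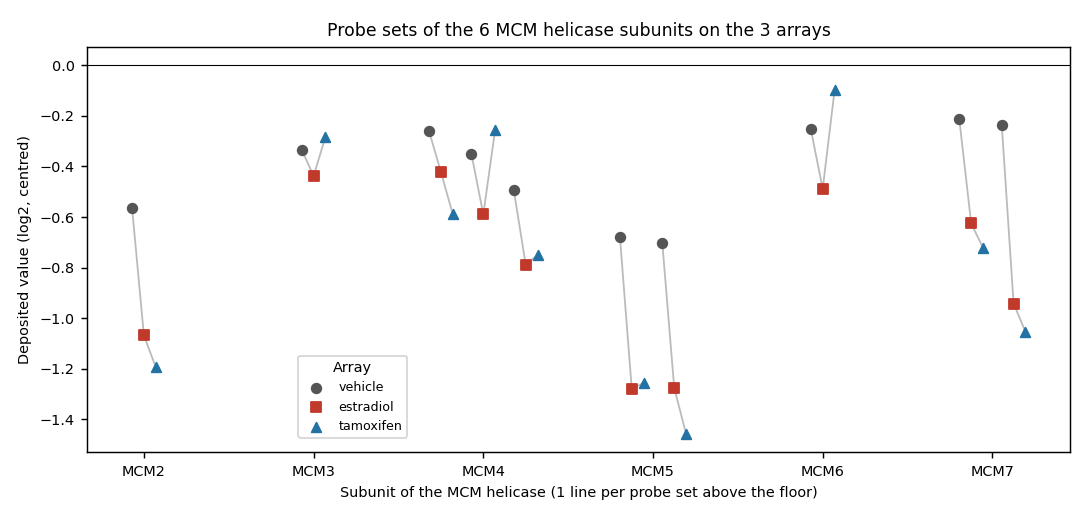
Deposited values (y axis, log2, centred) of each probe set above the floor for the 6 subunits of the MCM helicase, in the order vehicle, estradiol, tamoxifen along each line, 1 array each. MCM2, MCM5 and MCM7 step down from vehicle to both ligands at every probe set, and MCM3, MCM6 and 1 probe set of MCM4 come back to or above vehicle with tamoxifen.

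The loaders gave mixed values. ORC1 read -0.37, -0.86 and -1.27, with tamoxifen lowest. Its differences from vehicle were -0.49 and -0.91, and -0.12 and -0.54 when the vehicle was doubled. ORC6, another subunit of the complex, read -0.20, -0.62 and -0.18, low with estradiol alone. CDT1, which brings the ring to the origin, read -0.19, -0.96 and -0.79 at the first probe set and -0.20, -0.38 and 0.02 at the second. CDC6, which loads the ring together with CDT1, differed from vehicle by -0.27 and -0.26, and by -0.22 and -0.21 with the vehicle doubled. GMNN, the inhibitor of CDT1, read -0.18, -0.14 and 0.16 and was higher with tamoxifen.

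The 5 genes that activate the helicase had a median of -0.24 for estradiol and of 0.19 for tamoxifen, and of 0.21 and 0.27 with the vehicle doubled. MCM10, a firing factor, had 3 probe sets above the floor with tamoxifen minus vehicle differences of 0.03 to 0.45 and estradiol minus vehicle differences of -0.69 to -0.08. Their mean read -0.39, -0.67 and -0.16, and the probe set past 1.5-fold read -0.82, -1.51 and -0.79. With the vehicle doubled the mean lay above vehicle with both ligands, by 0.10 and 0.61. CDC45 read -0.45, -0.69 and -0.69, and GINS2 -0.52, -0.77 and -0.83. Both lay below vehicle as deposited, and above it by at least 0.21 with the vehicle doubled. GINS1 and GINS3 were 0.04 and 0.13 above vehicle with estradiol, and 0.26 and 0.19 with tamoxifen.

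At the fork the 2 polymerase alpha subunits went opposite ways. POLA1 read -0.08, 0.45 and 0.82, higher than vehicle with both ligands by 0.54 and 0.91. POLA2 read -0.37, -0.75 and -1.25, lower with both, at differences of -0.38 and -0.88. With the vehicle doubled POLA1 stood at 0.62 and 0.99, and POLA2 at -0.01 and -0.51. PRIM1, the primase that works with them, differed from vehicle by -0.08 and 0.04.

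PCNA, the sliding clamp, read -0.18, -0.36 and -0.05. RFC3, a subunit of the clamp loader, read -0.17, 0.22 and 0.06 at its brighter probe set, and 0.78, 2.08 and 1.91 at the other, which was higher than vehicle by 1.30 and 1.13. Of its other subunits, RFC2 differed from vehicle by -0.19 and -0.18 and RFC4 by -0.07 and 0.07. RPA2, of the single-strand binding complex, was higher by 0.37 and 0.16, and its partner RPA1 by 0.06 with estradiol. The 2 probe sets of RPA1 disagreed in sign, at -0.11 and 0.23 with estradiol and at -0.04 and 0.04 with tamoxifen. The nuclease gene FEN1 and the ligase gene LIG1, which join the fragments of the lagging strand, stood at -0.16 and -0.23 against vehicle in the estradiol comparison and at -0.12 and -0.21 in the tamoxifen comparison. Both lay above a doubled vehicle, FEN1 by 0.20 and 0.24 and LIG1 by 0.09 and 0.10. As deposited the 2 probe sets of FEN1 disagreed in sign, at -0.31 and 0.0013 with estradiol and at -0.29 and 0.05 with tamoxifen. Over the 11 fork genes the medians were -0.08 and 0.04, and 0.09 and 0.14 with the vehicle doubled.

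Of the genes for nucleotide supply, thymidine kinase TK1 lay lowest. Its probe sets read -0.56, -1.17 and -1.06 at the first and -0.66, -1.14 and -1.29 at the second, so that both ligand arrays were below vehicle at both. The mean differences were -0.55 and -0.57, short of 1.5-fold, and 0.06 and 0.04 with the vehicle doubled. RRM1, the large subunit of ribonucleotide reductase, read 0.03, 0.23 and -0.02 at the first probe set and -0.64, -1.23 and -0.89 at the second, so that its differences with estradiol disagree in sign. RRM2, the small subunit, differed from vehicle by -0.19 and -0.12, and thymidylate synthase TYMS by 0.09 and 0.12. The 3 probe sets of TYMS disagreed in sign, from -0.12 to 0.39 with estradiol and from -0.20 to 0.30 with tamoxifen.

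Among chromatin and S-phase genes, CHAF1A and CHAF1B, partner subunits of the chromatin assembly factor, differed in sign at their brightest probe sets. CHAF1A read -0.23, -0.74 and -0.56 at its brightest probe set, and CHAF1B -0.14, 0.12 and -0.0049. The 3 probe sets of CHAF1A above the floor differed from vehicle by -0.50 to 0.01 with estradiol and by -0.33 to -0.0085 with tamoxifen, so their signs disagree with estradiol. SLBP, which binds histone mRNA, read -0.03, 0.32 and 0.27, higher than vehicle by 0.35 and 0.30 and by 0.38 and 0.33 with the vehicle doubled. UHRF1, a factor that maintains DNA methylation, read -0.29, -0.44 and -0.08. DTL, which helps to degrade CDT1 in S phase, differed from vehicle by -0.22 and -0.06 at its brighter probe set. Its other probe set above the floor had the opposite sign, at 0.13 and 0.41.

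Tamoxifen and estradiol were compared directly at equal dose and time, without the vehicle values. In both directions 0 of the 49 members differed by 1.5-fold, against 1.57% of all genes higher with tamoxifen and 2.2% lower. The values ran from -0.50 for POLA2 to 0.51 for E2F3 and MCM10, and 34 of the 49 were above 0 (69.4%), against 46.8% of all genes. The median was 0.05, against -0.02 over all genes. Highest with tamoxifen after E2F3 and MCM10 were CCNE2 (0.49), ORC6 (0.44), MCM6 (0.39), POLA1 (0.37), UHRF1 (0.36) and PCNA (0.31). After POLA2 the lowest were ORC1 (-0.42), CCNE1 (-0.23), CDK4 (-0.23) and RPA2 (-0.20). All 3 probe sets of MCM10 were higher with tamoxifen, by 0.28, 0.53 and 0.72, the last being the single member probe set above the floor past 1.5-fold. Of the 2 E2F3 probe sets 1 gave 0.51 and the other 0.05. Group medians lay between 0.01 for the fork and 0.15 for chromatin and S-phase genes.

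**Figure D4:**
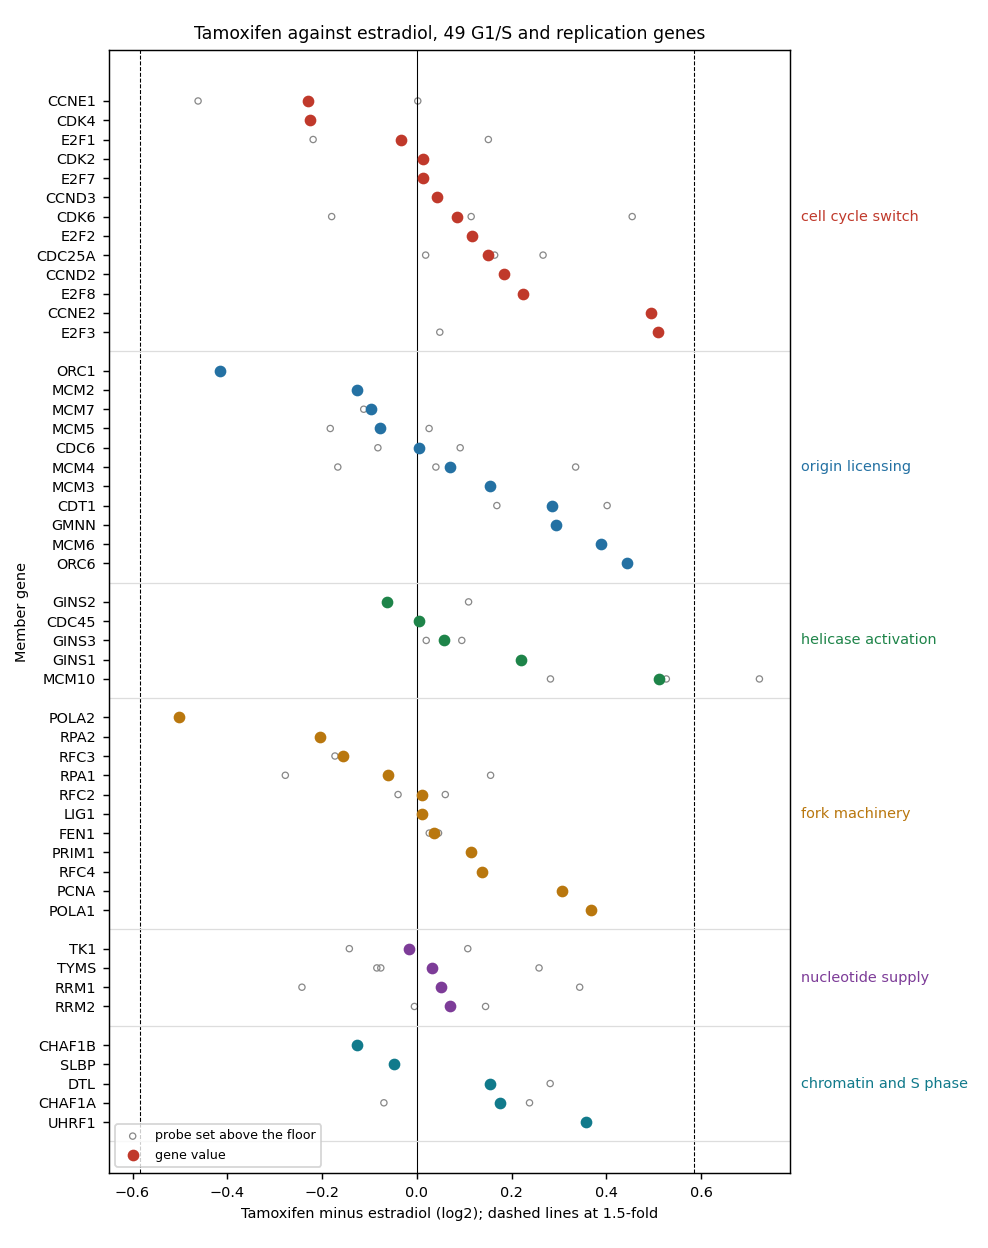
Tamoxifen minus estradiol (x axis, log2) for the 49 member genes, ordered within each role, as gene values (filled) and probe sets above the floor (open, hidden where they coincide with the gene value); dashed lines mark 1.5-fold. No filled point reaches a dashed line, and 1 open point, a probe set of MCM10 at 0.72, lies beyond it.

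Probe sets of the same gene show how far readings of 1 gene differ on these arrays. They share the RNA and the array, so their range is not a measure of the error between arrays. For 23 members with several probe sets above the floor, the difference between the highest and the lowest had a median of 0.31 for estradiol minus vehicle, 0.31 for tamoxifen minus vehicle and 0.25 for tamoxifen minus estradiol. The sign was shared by all probe sets in 15, 13 and 9 of the 23. The largest ranges were 0.91 (RFC3), 1.03 (E2F3) and 0.63 (CDK6). Of the 49 members, 31, 36 and 37 differed between arrays by less than these medians. As deposited, probe sets shared their sign against vehicle with both ligands for MCM5, MCM7, TK1, CDC6, E2F1, GINS2, RFC2 and RRM2, all below it. The same held for RFC3 and GINS3, which lay above vehicle. Those of MCM10 lay below vehicle with estradiol and above it with tamoxifen.

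Of 64 further genes of the G1/S and replication pathway, 61 had a probe set above the floor. With estradiol 1 was at least 1.5-fold above vehicle (1.64%, against 5.83% of all genes) and 7 below (11.5%, against 2.65%), and the median was -0.01. The higher gene was E2F5 (0.87), and the lowest were HELLS, a chromatin remodeller (-1.07), the catalytic polymerase subunits POLD1 (-0.92) and POLE (-0.90), the pocket protein gene RBL1 (-0.77) and TICRR, a firing factor (-0.74). With the vehicle doubled E2F5 (0.64), RBL1 (-0.71) and HELLS (-0.76) alone passed the rule, which is 1.64% higher and 3.28% lower, against 4.39% and 1.92%. With tamoxifen 2 were higher (3.28%, against 6.97%) and 4 lower (6.56%, against 4.33%), and the median was 0.03. The higher ones were E2F5 (0.90) and ATAD2 (0.77), and the lower ones CHTF18 (-0.70), POLD2 (-0.69), POLD1 (-0.63) and POLE (-0.62). With the vehicle doubled 6 were higher, E2F5 and ATAD2 among them, and 1 was lower (9.84% and 1.64%, against 7.14% and 3.64%). Between the ligands HELLS alone passed 1.5-fold, 0.70 higher with tamoxifen (1.64%, against 1.57%), and the median was 0.06, close to the 0.05 of the members.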

How the data were processed

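The 3 columns of Affymetrix array values, 1 per group by the labels, were used. The deposited values were taken as log2 values, base 2 being an assumption. The authors used RMA per the submitters' processing notes, with no version given, and the values are centred on a baseline not given in the sources used here. Probe sets were named through the platform annotation supplied with the values, and those with several symbols (1801) or outside that table (11777) were left out, as were the array's control probe sets. Levels are not given. A brightness band was therefore read from the binary step of the single-precision values, with the vehicle taken as a mean of 2 arrays. This was checked on simulated data and on 2 gene families: 107 of 121 probe sets of ribosomal protein genes (88.4%) lay above the floor, and 20 of 135 of olfactory receptor genes (14.8%). The simulated levels lay inside the bands, and the simulated vehicle was also a mean of 2 arrays. Levels near a band edge and other forms of the vehicle column were therefore not tried. Whether the vehicle is such a mean is not stated in the sources used here. Differences between arrays were taken per probe set and per gene (python 3.11.15, numpy 2.4.6, pandas 2.3.3), with a size rule of 1.5-fold and no test, since no group has a replicate. The number of arrays limits the precision. The members, role groups, other pathway genes and motifs were chosen with earlier results of these data known. Every member may be named; those with a probe set above the floor past 1.5-fold, and up to 4 per role group, are given array by array, and up to 6 other pathway genes per comparison.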

Additional observations from a re-analysis of the deposited data

How the results depend on the processing

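With the vehicle value doubled, the median over members turned from -0.19 to 0.10 with estradiol and from -0.06 to 0.17 with tamoxifen, MCM5 turned to 0.10 and 0.026, and no member was 1.5-fold lower with either ligand (0 and 0). A floor at the 8 to 16 band kept 28 members, with medians of -0.13 and 0.097 for estradiol and tamoxifen against vehicle and 0.060 between the ligands; 0 members were then higher with either ligand, 0 lower with estradiol and 1 lower with tamoxifen. Without probe sets whose names end in _s_at, _x_at or _a_at 34 members were left, with medians of -0.13, 0.036 and 0.091 in the same order. CCND2, MCM2 and POLA2, called in the main setting, then had no probe set above the floor. With estradiol 0 were higher, and with tamoxifen 1 was higher (POLA1) and 2 were lower (ORC1 and TK1). TK1 at -0.63 was newly called there, and MCM5 at -0.58 fell just short. With no floor and every probe set the medians were -0.12, -0.040 and 0.057 and 2 members were lower with estradiol. The mean over all probe sets above the floor gave -0.18 and -0.10 against vehicle, with 2 members higher and 2 lower with estradiol. Centring on all genes gave -0.21, -0.081 and 0.068, and centring within brightness bands -0.21, -0.10 and 0.060. At 2-fold 1 member was higher with tamoxifen, and 0 were lower with estradiol or tamoxifen. For tamoxifen minus estradiol, none of these settings gave a member past its size rule. Of 872 single-member values under the alternatives, 849 kept their side of 1.5-fold, but most of these were short of it in the main setting too. No called sign other than those of MCM5 turned. With the vehicle doubled, CCND2 with both ligands and MCM2, ORC1 and POLA2 with tamoxifen fell short of 1.5-fold. Only POLA1 with tamoxifen kept its call. Counting members called or not, doubling turned the sign of 17 with estradiol and of 13 with tamoxifen. No paired analysis was possible because each group held 1 array, and no array could be left out.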

Other observations

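Below the floor, 21 member probe sets were set aside. Among them 1 for CCNE2 read 0.81 with vehicle, 2.03 with estradiol and 2.23 with tamoxifen, while the bright probe set of the same gene differed from vehicle by 0.05 and 0.54. For CDK6 1 read 0.12, 0.83 and 0.29, high with estradiol alone. For POLA2 1 read -0.09, -0.95 and -0.16, low with estradiol alone, unlike the probe set above the floor, which was lowest with tamoxifen. These probe sets were picked after their values were seen.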
